A study of Mus musculus with 10 samples.

Results

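Genes of cholesterol synthesis and its control were followed across intestinal epithelial cell populations of the mouse, namely Hmgcs1, Idi1, Fdps, Fdft1, Sqle, Lss, Cyp51 and Insig1. A gene was represented by the probe set that the platform annotation assigns to it alone and that had the highest mean over all 10 arrays. This gave 7 of the 8 named genes among 12393 genes in all, and Insig1 is not analysed here. Total RNA of C57BL/6 mice was hybridised to Affymetrix mouse 430A 2.0 arrays, and every value below is a deposited log2 signal or a difference between such signals.

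The arrays form 5 groups of 2. Stem cells (ISC) were Lgr5-positive cells purified by flow cytometry for green fluorescent protein from Lgr5-eGFP-Cre mice. Crypt secretory progenitors came from mice with Rbpj deleted (Rbpj Sec-Pro), Rbpj being the DNA-binding partner of Notch, or from mice given the Notch inhibitor dibenzazepine (DBZ Sec-Pro). Crypt enterocyte progenitors (Ent-Pro) and mature villus enterocytes (ENT) both came from Atoh1-/- mice, so their comparison lies within 1 genotype. Per the labels' protocols, crypts were freed of villi by hand and then loosened with EDTA (5 mM, 50 min, kept at 4 °C), and villus cells were loosened over 25 min in the same solution. The ISC group alone was sorted, and its mice also differed from those of every other group in genotype or treatment. Sorting, genotype or treatment, and cell identity therefore cannot be told apart in any comparison with ISC. The labels used here give no age, no dose or duration of dibenzazepine, no driver of the Rbpj deletion and no statement that replicates were different animals. The p-values therefore cover only the variation among these preparations, part or all of which may be technical.

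Cholesterol is built from acetyl-CoA by way of mevalonate, farnesyl diphosphate, squalene and lanosterol, and the enzymes of the route are known targets of the transcription factor SREBP2. When the membranes of the endoplasmic reticulum are rich in sterol, INSIG proteins hold SREBP and its escort SCAP there. When sterol is low, SREBP is cut and the released part enters the nucleus. In the small intestine the epithelium makes cholesterol and also takes it up from the lumen.

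Promoter sequences from RefSeq (GRCm38.p6) were matched for 4 of the 7 genes, Hmgcs1, Idi1, Lss and Cyp51. The windows of 250 bases before and 50 bases after the start were searched on both strands for TCACNCCA, the core of a sterol regulatory element, for CCAAT, the box bound by NF-Y, and for GGGCGG, the box bound by Sp1. No match overlapped another in these 4 windows. The motifs were present, in that order, in 4.36%, 37.4% and 35.7% of 32851 RefSeq windows of 300 bases. An exact match to the core was found in Hmgcs1 only, beside 4 CCAAT and 3 GGGCGG matches. It lay on the plus strand with its first base at position -137 from the start. Idi1 held 2 CCAAT and 1 GGGCGG, Lss 1 and 2, and Cyp51 1 and 1. The 250 bases upstream are shown for Hmgcs1, because it holds the core, and for Cyp51, which was chosen after its values were seen as a gene that rose against ISC in each crypt progenitor group. Capitals mark the motifs on either strand. The Hmgcs1 stretch is chr13:119690101-119690350 on the plus strand and the Cyp51 stretch chr5:4104698-4104947 on the minus strand. A match describes letters and not a bound site. Variants of the motifs were not searched, so a window without a match may still hold such an element.
Hmgcs1: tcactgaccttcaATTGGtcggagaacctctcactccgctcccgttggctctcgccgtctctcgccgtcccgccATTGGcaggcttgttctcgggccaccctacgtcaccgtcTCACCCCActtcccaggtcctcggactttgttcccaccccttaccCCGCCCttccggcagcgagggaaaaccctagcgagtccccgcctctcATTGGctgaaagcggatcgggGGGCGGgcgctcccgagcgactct
Cyp51: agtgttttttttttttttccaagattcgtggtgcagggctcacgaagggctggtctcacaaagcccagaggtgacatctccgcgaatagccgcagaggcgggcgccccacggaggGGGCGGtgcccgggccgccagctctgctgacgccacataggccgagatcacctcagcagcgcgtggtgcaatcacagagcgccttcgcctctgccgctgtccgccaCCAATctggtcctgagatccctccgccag

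Across the groups, 4 enzymes, Sqle, Idi1, Fdps and Cyp51, stood higher in all 3 crypt progenitor groups than in the sorted stem cells, by 1.78-fold (Idi1 in DBZ Sec-Pro) to 4.70-fold (Fdps in Rbpj Sec-Pro). The other 3, Hmgcs1, Fdft1 and Lss, passed the test against ISC in none of the crypt progenitor groups with the probe sets used. Between crypt and villus of Atoh1-/- mice, Hmgcs1, Sqle, Idi1, Fdft1 and Lss fell by 1.51-fold to 2.54-fold, while Fdps and Cyp51 did not pass the test. The mean over the 7 genes was 9.57 ± 0.03 in ISC, 10.31 ± 0.07 in Rbpj Sec-Pro, 10.43 ± 0.15 in DBZ Sec-Pro, 10.35 ± 0.08 in Ent-Pro and 9.60 ± 0.17 in ENT (log2, SD, n = 2 arrays each). None of the 7 was near background, defined as within 1 (log2) of the array's absent control in both arrays of a group, and none was within 0.1 of an array's highest value. Because RNA was taken from whole cell preparations, fewer cells of a type and less RNA per cell cannot be told apart.

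**Figure D1:**
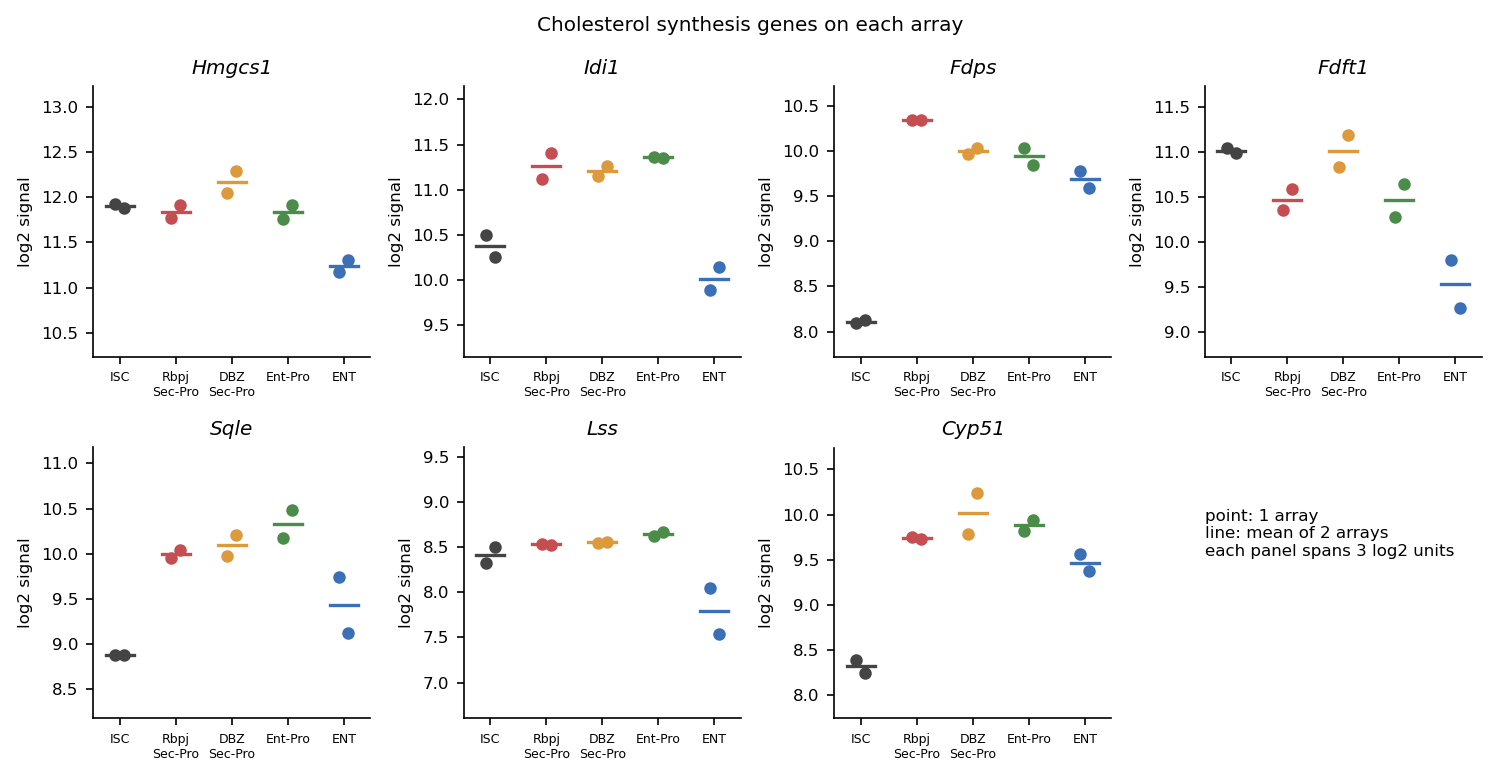
Deposited log2 signal of the 7 genes (vertical axes, each spanning 3 log2 units at its own level) on each array of the 5 groups (horizontal axis); points are arrays and lines the mean of 2 arrays. Sqle, Idi1, Fdps and Cyp51 are lower in ISC than in the 3 crypt progenitor groups, and all 7 genes are lower in both ENT arrays than in both Ent-Pro arrays.

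The earliest of these genes on the route is Hmgcs1, which makes HMG-CoA ahead of the reductase step. Its signal was 11.93 and 11.88 for ISC, 11.77 and 11.91 for Rbpj Sec-Pro, 12.05 and 12.29 for DBZ Sec-Pro, 11.76 and 11.91 for Ent-Pro, and 11.18 and 11.31 for ENT. The 2 ENT arrays lay below every other array, and the remaining 8 spanned a narrow range. Idi1 interconverts the C5 units from which isoprenoids are assembled. Its signal was 10.50 and 10.26 for ISC, 11.12 and 11.41 for Rbpj Sec-Pro, 11.15 and 11.26 for DBZ Sec-Pro, 11.36 and 11.35 for Ent-Pro, and 9.89 and 10.14 for ENT. Crypt progenitor arrays were high and did not overlap with ISC or ENT, which were both low. Fdps joins the C5 units into farnesyl diphosphate, from which sterols and protein prenyl groups both derive. Its signal was 8.10 and 8.12 for ISC, 10.34 and 10.35 for Rbpj Sec-Pro, 9.96 and 10.03 for DBZ Sec-Pro, 10.04 and 9.85 for Ent-Pro, and 9.78 and 9.59 for ENT. ISC stood alone at the bottom, and Rbpj Sec-Pro was the highest group.

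Fdft1 commits farnesyl diphosphate to squalene. Its signal was 11.04 and 10.98 for ISC, 10.35 and 10.58 for Rbpj Sec-Pro, 10.83 and 11.18 for DBZ Sec-Pro, 10.28 and 10.64 for Ent-Pro, and 9.80 and 9.27 for ENT. ISC and DBZ Sec-Pro overlapped at the top and ENT lay below all others. Sqle, the squalene epoxidase, catalyses a rate-limiting oxygen-dependent step. Its signal was 8.87 and 8.88 for ISC, 9.95 and 10.04 for Rbpj Sec-Pro, 9.98 and 10.21 for DBZ Sec-Pro, 10.17 and 10.48 for Ent-Pro, and 9.74 and 9.13 for ENT. The crypt progenitors were high, ISC was low, and the ENT arrays lay between them and far apart from each other.

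Lss closes the ring to give lanosterol, the first sterol of the route. Its signal was 8.32 and 8.50 for ISC, 8.54 and 8.52 for Rbpj Sec-Pro, 8.55 and 8.56 for DBZ Sec-Pro, 8.62 and 8.67 for Ent-Pro, and 8.04 and 7.54 for ENT. ENT was low with arrays well apart, and the other 8 arrays lay close together. Cyp51 removes the 14-alpha methyl group of lanosterol. Its signal was 8.39 and 8.24 for ISC, 9.75 and 9.73 for Rbpj Sec-Pro, 9.79 and 10.24 for DBZ Sec-Pro, 9.82 and 9.94 for Ent-Pro, and 9.56 and 9.37 for ENT. As with Fdps, ISC was the low group and ENT came next.

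The comparison of Ent-Pro with ISC sets enterocyte progenitors of Atoh1-/- crypts beside the sorted stem cells. In it 4 of the 7 genes rose and 0 fell, where 25.5% of all genes were called in either direction and 12.1% were higher. A gene was called where the adjusted p of limma (Benjamini-Hochberg over 12393 genes) was under 0.05. Fdps rose 3.56-fold (log2 difference 1.83 ± 0.12, SE; adjusted p = 6.08e-05), Cyp51 2.95-fold (1.56 ± 0.16; adjusted p = 0.000406), Sqle 2.73-fold (1.45 ± 0.20; adjusted p = 0.00142) and Idi1 1.97-fold (0.98 ± 0.15; adjusted p = 0.00213). Hmgcs1 differed by -0.07 (adjusted p = 0.785), Lss by 0.23 (adjusted p = 0.37) and Fdft1 by -0.55 (adjusted p = 0.0924). The median difference of the 7 was 0.98, and that of all genes -0.02. Fdft1 passed the test on the lower side (adjusted p = 0.0405) when only the arrays of these groups were fitted.

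The same 4 genes rose in both secretory progenitor groups against ISC, and 0 of 7 fell. These comparisons share their ISC arrays with the preceding one, so they are not independent of it. In Rbpj Sec-Pro, where 47.1% of all genes were called and 17.7% were higher, the rise was 4.70-fold for Fdps (2.23 ± 0.12, adjusted p = 1.65e-05), 2.68-fold for Cyp51 (1.42 ± 0.16, adjusted p = 0.000219), 2.17-fold for Sqle (1.12 ± 0.20, adjusted p = 0.0022) and 1.85-fold for Idi1 (0.89 ± 0.15, adjusted p = 0.00163). Fdft1 differed by -0.54 and missed the threshold (adjusted p = 0.0612). It passed, still lower, when only the arrays compared were fitted (adjusted p = 0.0452), among genes above the median level (adjusted p = 0.0494) and without either ENT array (adjusted p = 0.0394). The median of the 7 was 0.89 against -0.14 over all genes. In DBZ Sec-Pro, where 36.2% of all genes were called and 15.9% were higher, the rise was 3.70-fold for Fdps (1.89 ± 0.12, adjusted p = 2.36e-05), 3.24-fold for Cyp51 (1.70 ± 0.16, adjusted p = 0.000124), 2.32-fold for Sqle (1.22 ± 0.20, adjusted p = 0.0018) and 1.78-fold for Idi1 (0.83 ± 0.15, adjusted p = 0.00287). There Hmgcs1 differed by 0.27 (adjusted p = 0.152), Lss by 0.14 (adjusted p = 0.539) and Fdft1 by -0.01 (adjusted p = 0.985). The median of the 7 was 0.83 against -0.09 over all genes.

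Mature enterocytes were compared with their crypt progenitors within Atoh1-/- mice. Ent-Pro had 50 min in EDTA and ENT 25 min, so preparation and cell identity cannot be told apart here. Of the 7 genes 5 fell and 0 rose, where 38.7% of all genes were called and 20.2% were lower. Idi1 had the largest fall among the 7, 2.54-fold (log2 difference -1.34 ± 0.15, adjusted p = 0.00022). Fdft1 fell 1.90-fold (-0.92 ± 0.21, adjusted p = 0.00761), Sqle 1.85-fold (-0.89 ± 0.20, adjusted p = 0.00758), Lss 1.81-fold (-0.85 ± 0.16, adjusted p = 0.00326) and Hmgcs1 1.51-fold (-0.59 ± 0.13, adjusted p = 0.0066). Cyp51 differed by -0.41 (adjusted p = 0.0773) and Fdps by -0.25 (adjusted p = 0.142). For all 7 genes both ENT arrays lay below both Ent-Pro arrays, an absence of overlap also seen in 71.2% of all genes. The median of the 7 was -0.85, and that of all genes 0.02. A single array carried part of this result, and without Ent-Pro replicate 2 the calls fell from 5 to 2 (Idi1 and Lss), with Hmgcs1 at an adjusted p of 0.0603, Sqle at 0.066 and Fdft1 at 0.0674. Without ENT replicate 2, Fdft1 differed by -0.66 and also missed the threshold (adjusted p = 0.057), as it did with the mean of its probe sets (-0.36, adjusted p = 0.0555), and Cyp51 passed it without either DBZ Sec-Pro array (adjusted p = 0.0369).

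**Figure D2:**
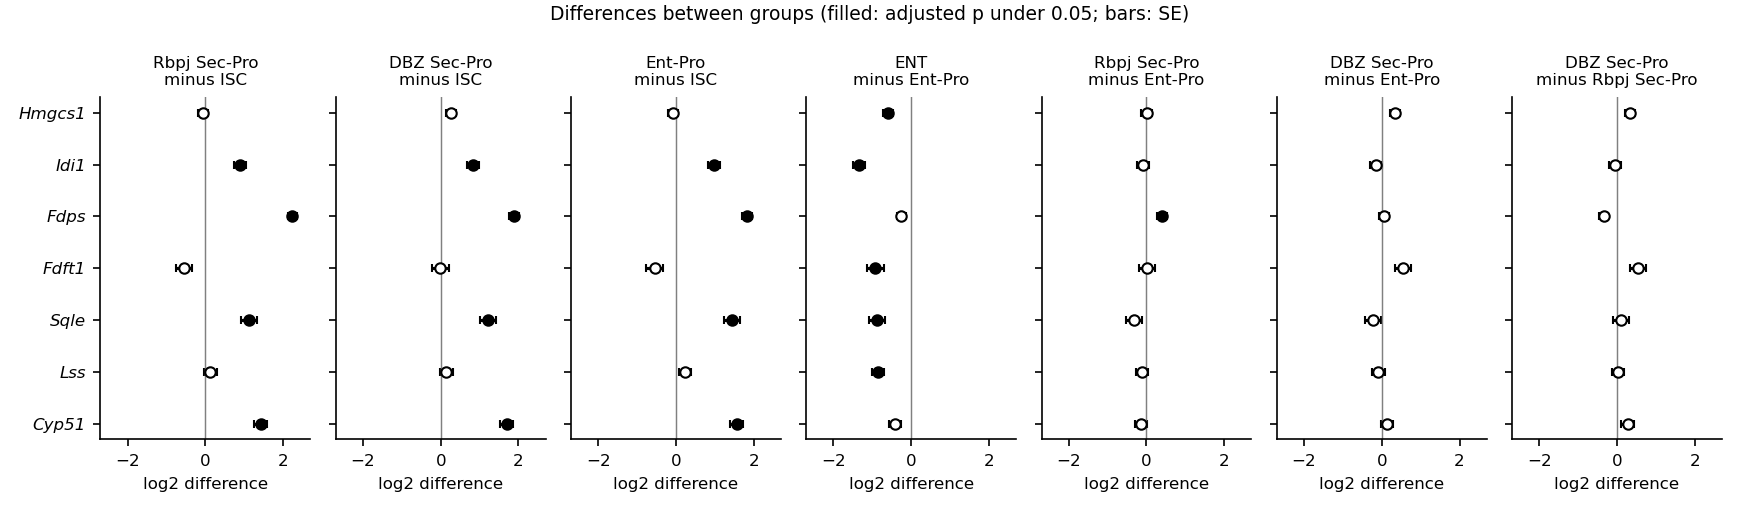
Log2 differences (horizontal axes) of the 7 genes (rows) in the 7 comparisons; bars are SE and filled points have an adjusted p under 0.05. Sqle, Idi1, Fdps and Cyp51 are filled and right of 0 in the 3 comparisons with ISC, 5 genes are filled and left of 0 in ENT minus Ent-Pro, and 1 point, Fdps, is filled in the 3 comparisons among crypt progenitors.

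The 3 crypt progenitor groups were then compared with one another. The secretory groups share a lineage, and they differ from Ent-Pro in genotype or treatment as well as in lineage, which cannot be told apart. Rbpj Sec-Pro against Ent-Pro gave 1 called gene of 7, Fdps, which was 1.32-fold higher (0.40 ± 0.12, adjusted p = 0.0424), where 26.3% of all genes were called and 9.37% were higher. That call was lost without 8 of the 10 arrays in turn (adjusted p up to 0.234), and also with arrays centred on their medians (adjusted p = 0.0798). DBZ Sec-Pro against Ent-Pro gave 0 of 7, where 18.6% of all genes were called. The largest differences of the 7 there were those of Fdft1 (0.55, adjusted p = 0.11) and Hmgcs1 (0.33, adjusted p = 0.119). DBZ against Rbpj Sec-Pro also gave 0 of 7 in limma, where 16.4% of all genes were called. The largest differences were those of Fdft1 (0.54), Fdps (-0.35) and Hmgcs1 (0.33), with adjusted p-values of 0.111, 0.0855 and 0.119. A p that misses the threshold does not show that levels were alike: the 95% interval of the DBZ minus Rbpj difference reached from 0.06 to 1.02 for Fdft1 and from -0.36 to 0.56 for Sqle. Goblet cell markers had a mean over 6 genes of 10.72 to 10.87 in ISC, 13.11 to 13.56 in the secretory groups and 6.13 to 6.19 in Ent-Pro. Enterocyte markers gave no such separation: their mean over 8 genes was 13.34 to 13.59 in Rbpj Sec-Pro, 12.54 to 13.05 in DBZ Sec-Pro and 12.74 to 13.05 in Ent-Pro, and 4 of the 8 were higher in Rbpj Sec-Pro than in Ent-Pro.

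Set against ISC, mature enterocytes held a mixture. In ENT 3 genes were higher and 3 lower of 7, where 49.2% of all genes were called, 22.3% higher and 26.8% lower. Fdps was 2.99-fold higher (1.58 ± 0.12, adjusted p = 1.37e-05) and Cyp51 2.22-fold higher (1.15 ± 0.16, adjusted p = 0.000352). Sqle was 1.47-fold higher (0.56 ± 0.20, adjusted p = 0.0476), a call that was lost without 9 of the 10 arrays in turn. Fdft1 was 2.78-fold lower (-1.48 ± 0.21, adjusted p = 0.000371), Hmgcs1 1.58-fold lower (-0.66 ± 0.13, adjusted p = 0.00259) and Lss 1.54-fold lower (-0.62 ± 0.16, adjusted p = 0.0121). The Hmgcs1 fall turned direction, without passing the test, with the mean of its probe sets (0.34, adjusted p = 0.0571). The Lss call was lost without ISC replicate 2 (adjusted p = 0.0761) or ENT replicate 2 (adjusted p = 0.0786). Against Rbpj Sec-Pro 5 of 7 were lower in ENT and 0 higher (35.8% of all genes called, 14.8% lower), and against DBZ Sec-Pro 6 of 7 were lower and 0 higher (45.1% called, 21.9% lower).

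Ordered by mean level, most neighbouring groups did not differ past the threshold. For Fdps, Cyp51 and Sqle the single step that passed lay at the bottom, between ENT and ISC. For Hmgcs1 and Fdft1 it lay between Ent-Pro and ENT, and for Lss between ISC and ENT, with ENT lowest in each. For Idi1 the step lay in the middle, between DBZ Sec-Pro and ISC (0.83, adjusted p = 0.00287), and the lowest pair, ISC and ENT, missed the threshold (adjusted p = 0.0797). On the probe sets used, ISC was thus the lowest group for Sqle, Fdps and Cyp51, and ENT for the other 4, which for Hmgcs1 did not hold on its other probe sets.

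The result for Hmgcs1 depended on the probe set. Of its 4 probe sets the brightest was used above and was called in none of the crypt comparisons with ISC. The dimmest read 8.16 and 7.97 for ISC, 9.83 and 10.05 for Rbpj Sec-Pro, 10.19 and 10.10 for DBZ Sec-Pro, 9.80 and 9.97 for Ent-Pro, and 9.36 and 9.48 for ENT. On it, ISC was lowest by a wide margin, as for Fdps and Cyp51. All 3 of the other probe sets rose in Ent-Pro against ISC, by 0.89, 1.29 and 1.82 from the second brightest to the dimmest. In the same order they rose by 0.62, 0.86 and 1.88 for Rbpj Sec-Pro, and by 1.22, 1.59 and 2.08 for DBZ Sec-Pro. In ENT against Ent-Pro all 4 fell, by -0.47 to -0.81. Against ISC, ENT was lower on the brightest probe set alone. On the second it differed by 0.08 (adjusted p = 0.699), and on the third and the dimmest it was higher, by 0.60 (adjusted p = 0.0133) and 1.35 (adjusted p = 5.26e-05). Between DBZ and Rbpj Sec-Pro, the third and second brightest were higher in DBZ (0.73 and 0.60), whereas the brightest and the dimmest were not called.

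Further probe sets were measured for the other genes too. The second Cyp51 probe set rose by 1.32 in Ent-Pro, 1.35 in Rbpj Sec-Pro and 1.5 in DBZ Sec-Pro against ISC, all called. The second Idi1 probe set rose by 0.91 in Ent-Pro and 0.78 in DBZ Sec-Pro and fell by 1.35 from Ent-Pro to ENT, but its 0.29 in Rbpj Sec-Pro was not called (adjusted p = 0.179). It was also 0.62 lower in Rbpj Sec-Pro than in Ent-Pro on the log2 scale, a call that the brighter Idi1 probe set did not give. The second probe sets of Fdft1 (-0.70) and Lss (-0.64) fell from Ent-Pro to ENT as the used ones did. The remaining dim ones of these genes did not, and the dimmest Lss probe set was lower in DBZ Sec-Pro than in ISC (-0.48). Over the 19 probe sets of the 7 genes, 9 rose and 0 fell in Ent-Pro against ISC, where 12.8% of 20380 single-gene probe sets were higher. In ENT against Ent-Pro 11 of 19 fell and 0 rose, where 19.0% of probe sets were lower. The second Fdps probe set was near background on all arrays, and Sqle has a single probe set.

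**Figure D3:**
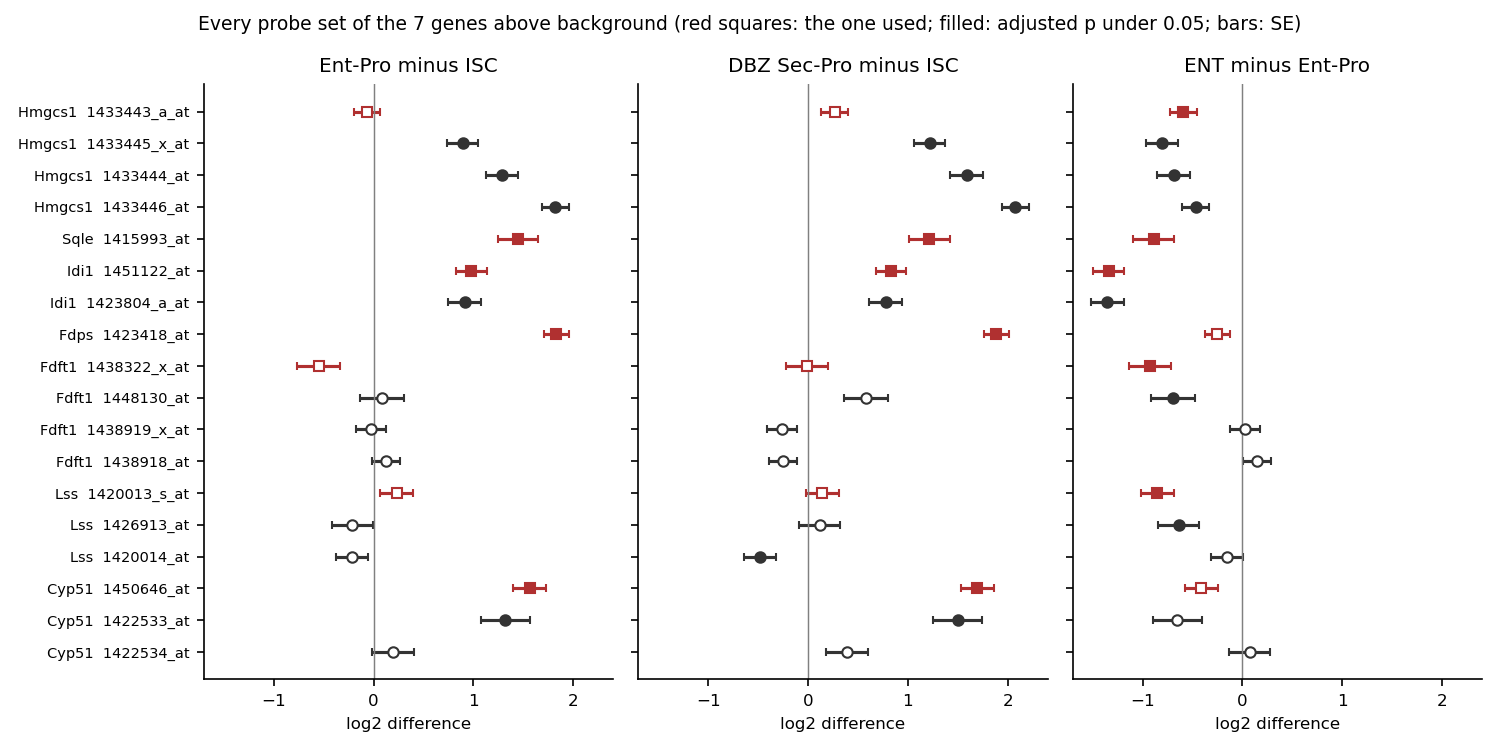
Log2 differences (horizontal axes, the same range in each panel) of the 18 probe sets above background (rows) in 3 comparisons; red squares are the probe sets used, filled symbols have an adjusted p under 0.05 and bars are SE. The 3 Hmgcs1 probe sets that were not used lie to the right of 0 in both comparisons with ISC, at 0.89 to 2.08, while the one used is open, and all 4 lie left of 0 in ENT minus Ent-Pro.

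The other measured enzymes of the route, 11 genes, were taken as a list from acetyl-CoA to cholesterol. Against ISC, 6 rose and 0 fell in Ent-Pro, 6 rose and 2 fell in Rbpj Sec-Pro, and 3 rose and 0 fell in DBZ Sec-Pro. Over all genes, 12.1% were higher and 13.5% lower in the first of these comparisons, 17.7% and 29.4% in the second, and 15.9% and 20.3% in the third. Msmo1, the C4 sterol methyl oxidase that acts after Cyp51, read 8.26 and 7.88 for ISC, 10.74 and 10.69 for Rbpj Sec-Pro, 10.76 and 10.85 for DBZ Sec-Pro, 10.36 and 10.66 for Ent-Pro, and 10.63 and 10.25 for ENT. Its level rose 5.44-fold in Ent-Pro (2.44 ± 0.18, adjusted p = 9.87e-05), 6.26-fold in Rbpj Sec-Pro (2.65 ± 0.18, adjusted p = 3.01e-05) and 6.67-fold in DBZ Sec-Pro (2.74 ± 0.18, adjusted p = 2.53e-05), and did not pass the test between Ent-Pro and ENT (-0.07). Msmo1 was thus low in ISC alone, as Fdps and Cyp51 were. Ebp, the sterol isomerase, rose by 0.95, 0.76 and 0.91 in the same 3 comparisons. Nsdhl, a C4 decarboxylating dehydrogenase, rose in Ent-Pro (0.56) and Rbpj Sec-Pro (0.69), as did Hsd17b7, the 3-ketosteroid reductase (0.77 and 0.93), and neither passed the test in DBZ Sec-Pro.

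Sc5d, the sterol C5 desaturase, stood out among the late enzymes because it went up again in the villus. It read 8.68 and 8.55 for ISC, 10.67 and 10.64 for Rbpj Sec-Pro, 10.58 and 10.46 for DBZ Sec-Pro, 10.30 and 10.11 for Ent-Pro, and 11.33 and 11.44 for ENT, a 2.26-fold rise from Ent-Pro (1.18 ± 0.12, adjusted p = 0.000152). The next brightest Sc5d probe set gave 0.64 for the last comparison, also called, but only 0.06 for Ent-Pro against ISC (adjusted p = 0.823), so the rise from ISC to crypt rests on 1 probe set. Tm7sf2, a sterol C14 reductase, was also higher in ENT than in Ent-Pro (0.92 ± 0.16, adjusted p = 0.00176). Lbr, which has the same reductase activity and is a receptor of the nuclear lamina, went the other way and fell 3.39-fold (-1.76 ± 0.17, adjusted p = 9.93e-05). Lbr was also lower in Rbpj Sec-Pro (-0.82) and in DBZ Sec-Pro (-0.78) than in Ent-Pro. The mevalonate kinase Mvk and the phosphomevalonate kinase Pmvk passed the test in none of the 7 comparisons. Mvd, the decarboxylase that follows them (-0.72), and Dhcr7, the final reductase of one branch (-0.69), fell in Rbpj Sec-Pro against ISC. For Mvd a second probe set turned the direction (0.41, adjusted p = 0.141).

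Leaving out 1 array ended several of these smaller calls, and the 6 rises in Ent-Pro became 3 without Ent-Pro replicate 1. In Ent-Pro against ISC those of Hsd17b7 (adjusted p up to 0.152), Lbr (up to 0.201) and Nsdhl (up to 0.14) were lost without at least 1 of the ISC or Ent-Pro arrays. In Rbpj Sec-Pro against ISC those of Tm7sf2 (up to 0.0803), Mvd (up to 0.134) and Dhcr7 (up to 0.12) were lost without either ISC array and without 1 Rbpj Sec-Pro array. The Lbr calls in both secretory groups against Ent-Pro were lost without either Ent-Pro array (adjusted p up to 0.0799), among others. The calls of Msmo1 and Ebp against ISC stood whichever array was left out.

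When the 18 measured enzymes were placed in pathway order, a split at lanosterol made after the values were seen gave 9 enzymes on each side. From Ent-Pro to ENT, 5 of the 9 up to lanosterol fell and 0 rose, with a median of -0.59. These 5 are the same calls as those given for the 7 genes. Over all genes, 20.2% were lower and 18.5% higher in that comparison. Of the 9 that act on lanosterol and later sterols 1 fell, Lbr, and 2 rose, Sc5d and Tm7sf2, with a median of -0.07. In Ent-Pro against ISC 3 of the early 9 rose (median 0.09) and 7 of the late 9 (median 0.77), with 0 falling on either side. There 12.1% of all genes were higher and 13.5% lower. The 3 leave out Hmgcs1, which rose on its other probe sets. The 7 include Sc5d, whose next brightest probe set gave 0.06. In ENT against ISC the early enzymes had 2 higher and 5 lower (median -0.58) and the late ones 6 higher and 1 lower (median 1.25). Of all genes, 22.3% were higher and 26.8% lower there. Without ISC replicate 2 or ENT replicate 2 the 5 early enzymes lower in ENT than in ISC became 2, and without ISC replicate 1 they became 3. The Hmgcs1 and Mvd values turned direction on their second probe sets. Without Ent-Pro replicate 2 the 5 early falls from Ent-Pro became 2, and without Ent-Pro replicate 1 the 7 late rises became 4. As the split followed the data it was given no test.

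**Figure D4:**
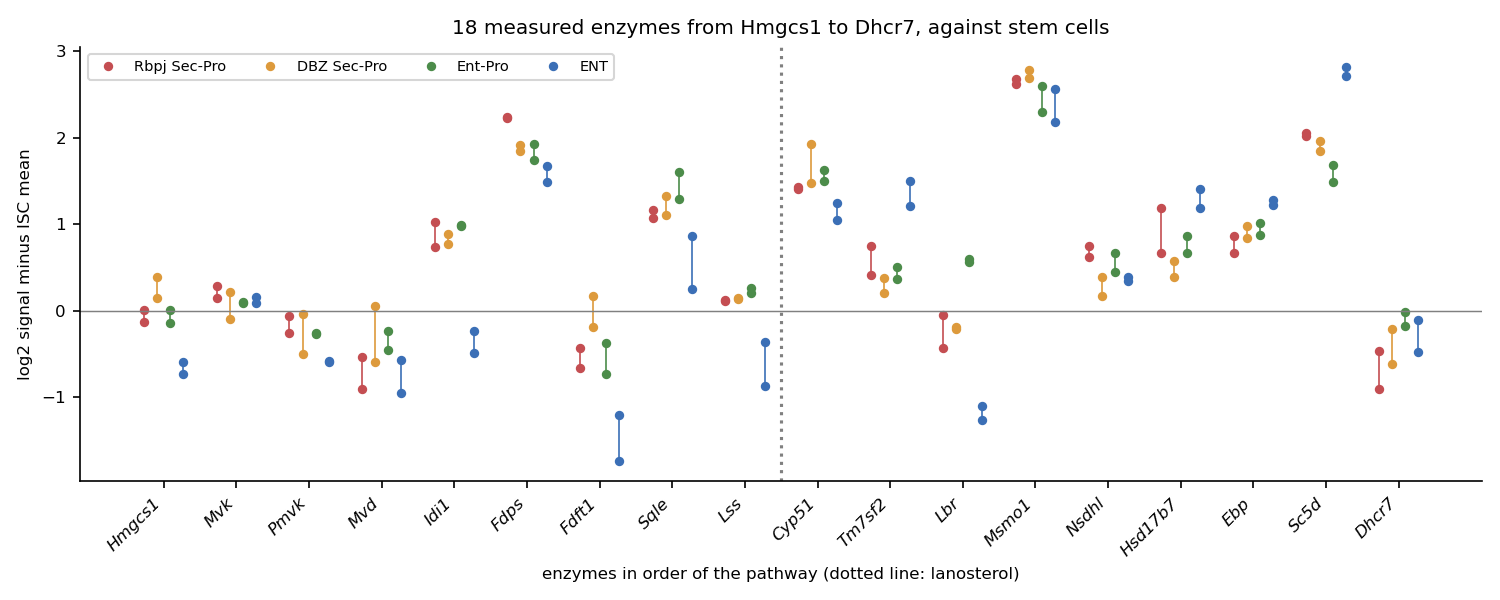
Log2 signal on each array minus the ISC mean (vertical axis) for 18 enzymes in pathway order (horizontal axis); the 2 points of a group are its arrays and the dotted line marks lanosterol. ENT (blue) lies below 0 for Hmgcs1, Fdft1 and Lss but above it for Fdps and Sqle on the left, and above 0 for Cyp51, Msmo1, Ebp and Sc5d but below it for Lbr on the right.

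The machinery that controls SREBP was taken as a list with 5 measured genes. Insig2, the retention protein whose relative Insig1 is not analysed here, read 7.20 and 6.67 for ISC, 8.87 and 8.65 for Rbpj Sec-Pro, 8.73 and 8.61 for DBZ Sec-Pro, 8.43 and 8.38 for Ent-Pro, and 9.04 and 9.25 for ENT. It was lowest in ISC and highest in ENT. The rise over ISC was 2.77-fold in Ent-Pro (1.47 ± 0.18, adjusted p = 0.000838), 3.54-fold in Rbpj Sec-Pro (1.82 ± 0.18, adjusted p = 0.000122) and 3.32-fold in DBZ Sec-Pro (1.73 ± 0.18, adjusted p = 0.000178). From Ent-Pro to ENT it rose by a further 0.74 (adjusted p = 0.011), a call lost without Ent-Pro replicate 2 (adjusted p = 0.0634) or ENT replicate 2 (adjusted p = 0.0723).

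Srebf2, which encodes SREBP2 itself, was not among the genes that rose. It read 9.09 and 9.04 for ISC, 8.06 and 8.13 for Rbpj Sec-Pro, 8.31 and 9.01 for DBZ Sec-Pro, 8.71 and 8.72 for Ent-Pro, and 8.35 and 8.20 for ENT. In Rbpj Sec-Pro it fell by 0.97 from ISC (adjusted p = 0.00421), though a second probe set gave -0.36 (adjusted p = 0.0886). Scap, the escort of SREBP, fell in Rbpj Sec-Pro (-0.56) and DBZ Sec-Pro (-0.48) against ISC and from Ent-Pro to ENT (-0.58). The DBZ call of Scap was lost without ISC replicate 1 (adjusted p = 0.052) or DBZ Sec-Pro replicate 1 (adjusted p = 0.0664). Of the 5 genes 1 rose and 4 fell in Rbpj Sec-Pro against ISC, 1 rose and 2 fell in DBZ Sec-Pro, and 1 rose and 0 fell in Ent-Pro, where 47.1%, 36.2% and 25.5% of all genes were called. The 4 falls became 2 without ISC replicate 1, and the 2 in DBZ Sec-Pro became 0 without ISC replicate 1 or DBZ Sec-Pro replicate 1 and 1 without ISC replicate 2. The small falls of Srebf1, which encodes SREBP1, in both secretory groups against ISC (-0.38 and -0.46) and against Ent-Pro (-0.52 and -0.60) were each lost when 1 or more of the arrays was left out in turn. Mbtps1, the site-1 protease, fell by 0.51 in Rbpj Sec-Pro against ISC, but a second probe set gave -0.02 (adjusted p = 0.909).

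Genes that take up and move cholesterol, 8 measured, rose and fell in different groups. Stard4, a sterol carrier and SREBP2 target, read 9.52 and 9.54 for ISC, 10.31 to 10.58 on the 6 crypt progenitor arrays, and 9.83 and 10.11 for ENT. It followed Sqle and Idi1, rising by 1.00 in Ent-Pro, 0.80 in Rbpj Sec-Pro and 0.85 in DBZ Sec-Pro against ISC and falling by 0.56 from Ent-Pro to ENT. That fall missed the threshold on a second Stard4 probe set (-0.37, adjusted p = 0.109). It was also lost without Ent-Pro replicate 2 (-0.51) or ENT replicate 1 (-0.41). A further 3 genes of uptake and lysosomal release rose instead in ENT against Ent-Pro: the lipoprotein receptor Scarb1 10.2-fold (3.35 ± 0.25, adjusted p = 4.89e-05), the lysosomal lipase Lipa 6.09-fold (2.61 ± 0.24, adjusted p = 9.53e-05) and the lysosomal sterol exporter Npc1 2.89-fold (1.53 ± 0.13, adjusted p = 6.8e-05). Of the 8 genes 4 rose and 2 fell in that comparison, where 18.5% of all genes were higher and 20.2% lower. The 2 falls lay near that share, and without Ent-Pro replicate 2 they became 0. Vldlr, the receptor for very low density lipoprotein, read 4.86 and 5.06 for Ent-Pro, little above the bound for background, against 8.35 and 8.76 for DBZ Sec-Pro (12.1-fold, adjusted p = 3.66e-05) and 8.03 and 7.21 for Rbpj Sec-Pro. Its difference between Rbpj Sec-Pro and Ent-Pro was called (2.66 ± 0.25, adjusted p = 0.000397), but a second probe set gave 0.35 (adjusted p = 0.072). Of 8 efflux and storage genes 5 rose and 0 fell from Ent-Pro to ENT, where 18.5% of all genes were higher. The 5 became 2 without Ent-Pro replicate 2 or either ENT array, and 3 without Ent-Pro replicate 1 or either ISC array. Those that rose included the sterol exporters Abcg5, 3.68-fold (1.88 ± 0.29, adjusted p = 0.000909), and Abcg8, 2.67-fold (1.42 ± 0.18, adjusted p = 0.000374).

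Other cells and the cell cycle moved with the groups as well, and their part in the results above was not tested. The mean of 25 cell cycle genes was 10.15 to 10.26 in ISC, 9.27 and 9.80 for Rbpj Sec-Pro, 9.46 to 9.56 in DBZ Sec-Pro, 10.34 to 10.49 in Ent-Pro and 8.35 to 8.36 in ENT. All 25 fell from Ent-Pro to ENT, where 20.2% of all genes were lower. In Rbpj and DBZ Sec-Pro 22 and 20 were lower than in Ent-Pro, beside 16.9% and 9.77% of all genes. In those comparisons 1 and 0 of the 7 synthesis genes were called. ISC had high cell cycle levels and a low mean of the 7 synthesis genes. Of the 7, Hmgcs1, Fdft1 and Lss did not pass the test between ISC and any crypt progenitor group on the probe sets used. ENT had both means low. The mean of 9 leukocyte markers was 5.59 to 5.76 in ISC, 6.22 to 6.25 in Ent-Pro, 7.04 to 7.56 in DBZ Sec-Pro, 8.29 and 6.85 for Rbpj Sec-Pro and 7.56 to 7.76 in ENT. Of these markers 3 were near background in ISC, 1 in Ent-Pro, 1 in ENT and 0 in the secretory groups. Tuft cell markers, 5 genes, averaged 6.43 to 7.11 in ISC, 6.84 and 9.0 for Rbpj Sec-Pro, 8.53 to 8.64 in DBZ Sec-Pro, 5.77 to 6.23 in Ent-Pro and 8.87 to 9.42 in ENT. All 5 rose from Ent-Pro to ENT, with a median of 3.63, where 18.5% of all genes were higher. Without Ent-Pro replicate 2 or ENT replicate 1, 3 of the 5 rose. The 4 Paneth markers averaged 11.15 to 11.85 in ISC, 12.86 to 13.83 in the secretory groups, 8.81 to 8.99 in Ent-Pro, and 7.17 and 9.38 for ENT, whose arrays were far apart. The 8 enteroendocrine markers averaged 8.72 to 9.05 in ISC, 10.12 to 11.00 in the secretory groups, 6.40 to 6.41 in Ent-Pro and 5.95 to 6.03 in ENT. The sorted ISC arrays thus carried more Paneth, enteroendocrine and goblet marker signal than Ent-Pro. The 8 stromal markers averaged 5.26 to 5.83 on every array, with 2 to 4 of them near background in each group. Vim alone among them read 10.42 and 7.94 for Rbpj Sec-Pro against 5.70 and 5.26 for Ent-Pro, which the mean hides. The mean of 8 enterocyte markers was 10.71 to 10.85 in ISC and 12.54 to 13.84 elsewhere, and that of 8 stem cell markers was 10.41 to 10.59 in ISC and 7.53 to 9.15 elsewhere.

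**Figure D5:**
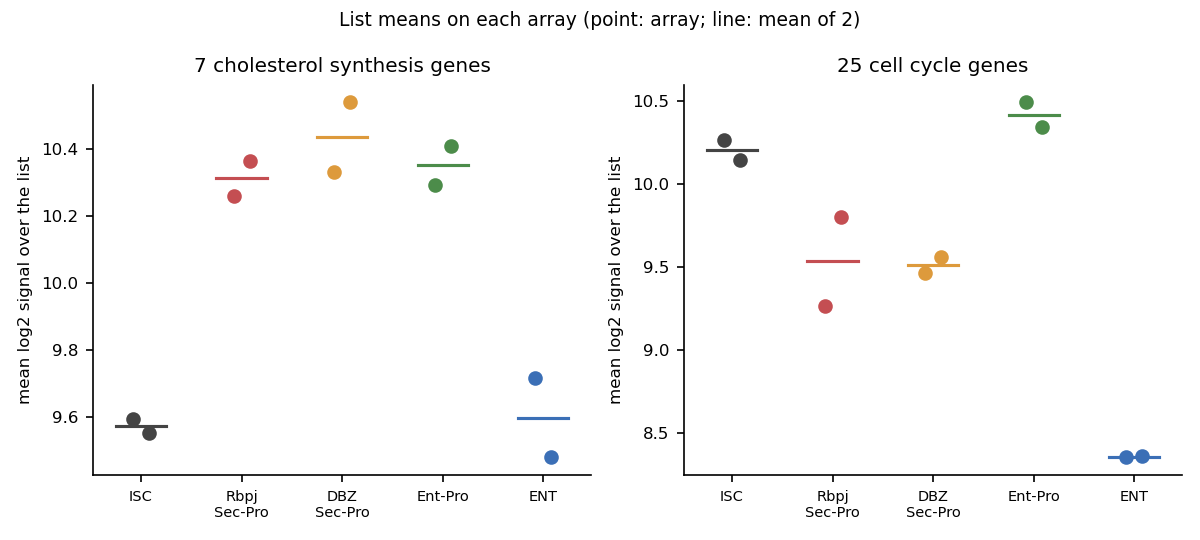
Mean log2 signal (vertical axes, which do not start at 0) of the 7 cholesterol synthesis genes and of 25 cell cycle genes on each array of the 5 groups (horizontal axis); points are arrays and lines the mean of 2. The mean of the synthesis genes is low in ISC (9.57) and ENT (9.60), whereas that of the cell cycle genes is low in ENT and high in ISC and Ent-Pro.

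The targeted genes were low where the labels give their loss. Rbpj read 6.74 and 6.62 for Rbpj Sec-Pro and 8.26 and 8.31 for DBZ Sec-Pro, and it was also lower in ENT (7.0 and 7.21). Atoh1 read 5.75 and 5.78 for Ent-Pro and 4.97 and 5.18 for ENT, against 10.40 to 11.85 in the secretory groups. Lgr5 read 11.36 and 11.06 for ISC, and its levels in Rbpj Sec-Pro, 6.31 and 8.61, were far apart. Smoc2, another stem cell marker, read 11.78 and 11.49 for ISC and nearly as much for Ent-Pro, 11.38 and 11.42. Enterocyte markers were as high in the preparations labelled secretory progenitors as in Ent-Pro. Pearson correlations over the 12393 genes were 0.982 to 0.995 within groups and 0.886 to 0.980 between groups.

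Among the 7 genes, 21 pairs were correlated over the 10 arrays as a description, since arrays of a group share their condition. The median Pearson r was 0.57, the highest 0.94 (Fdps with Cyp51) and the lowest -0.30 (Fdps with Fdft1). Sqle and Cyp51 had an r of 0.91 and Hmgcs1 and Fdft1 one of 0.90, all on the probe sets used. Of 6549 other genes whose range over the arrays was at least 1 (log2), those most like the mean of the 7 genes were Canx (r = 0.96), Pafah1b2 (0.96), Sh3bgrl2 (0.96), Nudcd1 (0.95), Dynll1 (0.95) and Tspan1 (0.94). Canx, a chaperone of the endoplasmic reticulum, read 11.97 and 12.00 for ISC, 12.67 to 12.91 on the 6 crypt progenitor arrays, and 11.91 and 12.06 for ENT. Msmo1 came 352nd of these genes with an r of 0.69, and it stayed high in ENT. The other route enzymes among these genes had a lower r, from 0.52 (Lbr) down to -0.21 (Tm7sf2).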

How the data were processed

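Gene expression of 5 groups of 2 intestinal samples was measured on 10 arrays. For 22690 probe sets the authors deposited log2 values, made with RMA and MAS5 per the submitters' processing notes, with no role or version of either given in the sources used here. The deposited log2 values ranged from 2.90 to 15.18, array medians lay between 6.83 and 6.98, and no further scaling was applied. The number of arrays limits the precision. Names came from the platform annotation of the probe sets, of which 20393 had 1 gene symbol, 691 several and 1606 none here. The 64 control probe sets were left out. Of the 4956 genes with several probe sets, the one with the highest mean was used, with no filter on dim genes.

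A linear model in limma 3.58.1 (R 4.3.3) estimated the 5 group means from all 10 arrays (lmFit and eBayes, 5 residual and 3.75 prior degrees of freedom). P-values were adjusted by Benjamini-Hochberg over 12393 genes in each comparison and a gene was called under 0.05. The fit was tested on simulated data with 200 of 12393 genes shifted. The noise was independent and normal, with the spread that the fit itself had estimated. For Ent-Pro against ISC the fit called 79% of the genes shifted by log2 1 and 99% of those shifted by 2, with 10 false calls, and for ENT against Ent-Pro 84% and 98%, with 9. In the real comparisons 16.4% to 49.2% of genes were called, so these shares check the code and do not measure recovery in these data. The genes, lists and tests were chosen with earlier results of these data known. Named were all measured genes of the route, check genes, and the 6 genes most like the mean of the 7. Those of each other list were drawn from up to 3 called genes with the largest difference in each comparison, not all of which are printed. Stard4 lay outside that rule. Of the isoprenoid list and most marker lists, only counts or means are given, and Smoc2, Mid1ip1 and Acaca were named after their values were seen. Alternatives were array centring, cyclic loess, the mean or the second brightest of the probe sets, genes above the median level, a fit on the compared groups only, a mean-variance trend, a replicate block and leaving out each array. The second brightest probe set, all alternatives for ENT against ISC and those for the counts of other lists were added after seeing the data.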

Additional observations from a re-analysis of the deposited data

How the results depend on the processing

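Of the 18 calls of the 7 genes in the 7 comparisons, 18 were kept with cyclic loess, with genes above the median level and with a mean-variance trend. Centring the arrays, fitting only the groups compared and the replicate block each kept 17, and the mean of probe sets kept 16, losing Fdft1 in ENT against Ent-Pro (-0.36, adjusted p = 0.0555). A second probe set above background existed for 5 of the 7 genes, not for Sqle or Fdps, and it kept 9 of the 10 calls of these 5. The other 8 calls could not be tried on one. No call of these 18 turned its direction. Leaving out an array kept 14 (Ent-Pro replicate 2) to 18 (ENT replicate 1). The number of the 7 genes called then ranged from 2 to 6 in ENT against Ent-Pro, 4 to 4 in Ent-Pro against ISC, 4 to 5 in Rbpj Sec-Pro against ISC, 4 to 4 in DBZ Sec-Pro against ISC, 0 to 1 in Rbpj Sec-Pro against Ent-Pro, 0 to 0 in DBZ Sec-Pro against Ent-Pro and 0 to 0 in DBZ against Rbpj Sec-Pro. For Rbpj Sec-Pro against Ent-Pro (1 called) it was 0 with centred arrays, the mean of probe sets, the groups compared only and the replicate block, and 2 with the second brightest probe set. For DBZ against Rbpj Sec-Pro (0 called) it was 1 with the mean of probe sets and 1 with the second brightest, Hmgcs1 in both.

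Over all genes, the calls ranged without 1 array from 3319 to 5220 (ENT against Ent-Pro, 4792 with all), 1704 to 3656 (Ent-Pro against ISC, 3165), 4314 to 5698 (Rbpj Sec-Pro against ISC, 5832), 3075 to 5030 (DBZ Sec-Pro against ISC, 4483), 824 to 3845 (Rbpj Sec-Pro against Ent-Pro, 3255), 1045 to 2856 (DBZ Sec-Pro against Ent-Pro, 2307) and 363 to 2742 (DBZ against Rbpj Sec-Pro, 2036). With genes above the median level, a test of fewer genes, they were 3859 in Rbpj Sec-Pro against ISC, 2142 in Rbpj Sec-Pro against Ent-Pro and 1167 in DBZ against Rbpj Sec-Pro. With the groups compared only, a fit on fewer arrays, the last 2 were 705 and 97. Cyclic loess moved the median of all genes by 0.13 in Rbpj Sec-Pro against ISC and by 0.11 in Rbpj Sec-Pro against Ent-Pro, and the share of calls that were higher from 37.6% to 48.9% and from 35.7% to 52.9%. Centring moved that share from 47.5% to 35.5% in DBZ Sec-Pro against Ent-Pro.

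Directions turned mostly where another probe set entered, and the cause was not tested. Against ISC, the mean of probe sets gave 0.98 (Ent-Pro), 0.82 (Rbpj Sec-Pro) and 0.34 (ENT) for Hmgcs1, -0.065, -0.034 and -0.073 for Lss in Ent-Pro, Rbpj and DBZ Sec-Pro, 0.026 and 0.016 for Fdft1 in Rbpj and DBZ Sec-Pro, and 0.19 for Acly in Rbpj Sec-Pro. In DBZ against Rbpj Sec-Pro it gave -0.0096 for Fdft1 and -0.041 for Mbtps1. Against ISC, the second brightest probe set gave 0.89 (Ent-Pro), 0.62 (Rbpj Sec-Pro) and 0.085 (ENT) for Hmgcs1, 0.084, 0.13 and 0.58 for Fdft1 in Ent-Pro, Rbpj and DBZ Sec-Pro, and -0.21 and -0.20 for Lss in Ent-Pro and Rbpj Sec-Pro. It also gave 0.41 (Rbpj Sec-Pro) and 0.30 (ENT) for Mvd, -0.0081 and -0.091 for Sc5d in Rbpj and DBZ Sec-Pro, -0.12 for Vldlr and 0.54 for Acly in Rbpj Sec-Pro. In Rbpj Sec-Pro against Ent-Pro it gave -0.067 for Sc5d and 0.20 for Mbtps1, and in DBZ against Rbpj Sec-Pro -0.42 for Mbtps1. Leaving out 1 array also turned 3 uncalled differences against ISC, which then ranged from -0.14 to 0.0082 (Hmgcs1, Ent-Pro), -0.13 to 0.0056 (Hmgcs1, Rbpj Sec-Pro) and -0.18 to 0.17 (Fdft1, DBZ Sec-Pro).

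Replicate numbers did not pair the samples: deviations of same-numbered arrays correlated between -0.19 and 0.17 over 10 pairs of groups, 1 of them over 0.1. With the replicate block, 17 of the 18 calls were kept, and the call of Fdps in Rbpj Sec-Pro against Ent-Pro was lost (adjusted p = 0.0571).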

Other observations

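Fatty acid synthesis genes, 14 of them, are known targets or partners of SREBP1, and 6 fell while 2 rose from Ent-Pro to ENT (median -0.58 against 0.02 over all genes, of which 20.2% were lower and 18.5% higher). Fasn, the fatty acid synthase, read 9.73 and 9.69 for ISC, 8.95 and 9.32 for Rbpj Sec-Pro, 9.21 and 9.85 for DBZ Sec-Pro, 9.60 and 9.51 for Ent-Pro, and 8.38 and 7.76 for ENT. The ENT arrays were the lowest, and the fall from Ent-Pro was 2.80-fold (log2 difference -1.48 ± 0.25, adjusted p = 0.00169 in limma). Acly, which makes cytosolic acetyl-CoA for both fatty acids and sterols, fell 2.15-fold (-1.11 ± 0.22, adjusted p = 0.00361). The desaturase Fads1 fell 2.89-fold (-1.53 ± 0.36, adjusted p = 0.00853), a call lost without ENT replicate 2 (adjusted p = 0.0657). Fads2 and Mid1ip1 were lost there as well, so that the 6 falls became 3. Me1, the malic enzyme that supplies NADPH, went the other way, from 7.58 and 7.25 in Ent-Pro to 12.00 and 12.20 in ENT (4.69 ± 0.36, adjusted p = 5.19e-05), and the elongase Elovl6 rose 1.82-fold (0.87 ± 0.18, adjusted p = 0.00463).

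Against ISC 5 of this list rose and 6 fell in Rbpj Sec-Pro, 3 rose and 4 fell in DBZ Sec-Pro, and 2 rose and 1 fell in Ent-Pro, where 47.1%, 36.2% and 25.5% of all genes were called. Of the 6 that fell in Rbpj Sec-Pro, Acaca was near background in all 5 groups, and Acly was higher on its second probe set (0.54, adjusted p = 0.029). Without ISC replicate 2 the 6 became 2, and the 5 rises became 3 without either ISC array or Rbpj Sec-Pro replicate 2. In DBZ Sec-Pro the 4 became 2 without ISC replicate 2 or DBZ Sec-Pro replicate 2, and the 1 in Ent-Pro was lost without any one of the ISC or Ent-Pro arrays. Fads2, the other desaturase, read 11.13 and 10.76 in ISC and was 4.63-fold lower in Rbpj Sec-Pro (-2.21 ± 0.32, adjusted p = 0.000674) and 4.83-fold lower in DBZ Sec-Pro (-2.27 ± 0.32, adjusted p = 0.000739). The isoprenoid branch beside the sterol route covers geranylgeranyl diphosphate and dolichol synthesis, protein prenylation and the processing of prenylated proteins. Of its 9 measured genes, 4 fell and 0 rose in Ent-Pro against ISC. In Rbpj Sec-Pro 5 fell and 1 rose, and in DBZ Sec-Pro 2 fell and 1 rose. In the same order, 13.5%, 29.4% and 20.3% of all genes were lower, and 12.1%, 17.7% and 15.9% higher. The 4 falls in Ent-Pro became 0 to 2 without any one of the ISC or Ent-Pro arrays, the 5 in Rbpj Sec-Pro became 3 without any one of those or Rbpj Sec-Pro replicate 1, and the 2 in DBZ Sec-Pro became 1 without either ISC array or DBZ Sec-Pro replicate 1. From Ent-Pro to ENT 2 of the 9 fell and 0 rose, where 20.2% of all genes were lower and 18.5% higher. The 2 became 0 without Ent-Pro replicate 2 or ENT replicate 1. Both here and in DBZ Sec-Pro, 2 falls of 9 lay near the share over all genes. Fdps, whose product feeds this branch as well, rose in all 3 of the comparisons with ISC.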
